A study of Mus musculus with 4 samples.

Results

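The cells described here are lymph node reticular cells that carry Ccl21a and Cilp together with at least 2 of the genes Adamtsl2, A2m, Cxcl14, Lingo2, Prkcb, Megf6 and Ncam1. They were found by a gate on raw unique molecular identifiers (UMIs, each marking 1 captured RNA molecule) in cells with at least 500 genes, at least 1000 UMIs and at most 10% mitochondrial UMIs. The gate asked for at least 1 UMI of Ccl21a and of Cilp and at least 2 of the 7 further genes, and it excluded cells with any Pi16, Pecam1 or Ptprc and cells with more than 2 UMIs of Cxcl9. It held 5289 of 46638 cells, of which 5149 came from Notch2 cKO mice and 140 from control mice. These genes were picked with the values of the same libraries in view, so how often they occur and how high they are is a description and carries no test.

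Fibroblastic reticular cells are the stromal scaffold of the lymph node. Those of the T-cell zone secrete the chemokines CCL21 and CCL19, which attract T cells and dendritic cells, and interleukin-7, which keeps naive T cells alive, while others ensheath vessels or line the follicles. NOTCH2 is a receptor for ligands on neighbouring cells: ligand binding frees its intracellular part, which joins the DNA-binding protein RBPJ and switches on targets such as Hes1 and the Hey genes.

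The study compared 2 Notch2 cKO libraries with 2 control libraries of sorted live stromal cells, negative for the leukocyte marker CD45 and the endothelial marker CD31, from peripheral lymph nodes of 12-week-old female C57BL/6 mice. Notch2 cKO 1 (Ccl19-Cre, Notch2 fl/fl, R26R-EYFP) and control 1 (Ccl19-Cre, R26R-EYFP, not littermates) each pooled 6 mice and formed batch 1. Notch2 cKO 2 (Ccl19-Cre, Notch2 fl/fl) and its littermate control 2 (Notch2 fl/fl without Cre, although its title names Ccl19-Cre) each pooled 3 mice and formed batch 2. Control 1 thus carries Cre without floxed Notch2, and control 2 carries floxed Notch2 without Cre. The Cre is driven by the Ccl19 promoter, so stromal cells that never used it keep their Notch2. The library was the replicate (n = 2 per group).

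Batch 2 held more UMIs per cell: kept cells had medians of 2960 and 7604.5 UMIs in Notch2 cKO 1 and 2, against 2123 and 6169 UMIs in control 1 and 2. Gated cells were richer still, at 3877 and 10504 UMIs in Notch2 cKO 1 and 2. The Ccl21a criterion on its own was loose, because Ccl21a RNA was found in cells that should lack it. In batch 2, 81.5% of 54 Schwann cells of Notch2 cKO 2 and 85.7% of 63 Schwann cells of control 2 held a Ccl21a UMI, but 11.1% in each held 10 or more. In pericytes the higher cut helped less: 10 or more Ccl21a UMIs were found in 64.0% and 23.7% of pericytes in Notch2 cKO 1 and 2, against 77.6% and 28.2% for control 1 and 2, so in batch 1 it did not remove them. Gated Notch2 cKO cells held 10 or more in 93.1% (batch 1) and 91.6% (batch 2), against 70.5% and 48.2% of the Ccl21a-positive cells (at least 1 UMI) of control 1 and 2. The test of gated Notch2 cKO cells against control cells was therefore also run between cells with 10 or more Ccl21a UMIs and the same exclusions. It is called the Ccl21a-rich comparison (1707 and 3038 gated Notch2 cKO cells, 4417 and 5494 control cells). Its values are given where they change the call of a gene or the count of a list named below. The values over all Ccl21a-positive Notch2 cKO cells, or by number of gate genes, were not computed this way. Barcodes shared by any pair of libraries numbered 21 to 57.

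Of the named markers, Cilp was in every gated cell by design, and Adamtsl2, A2m, Cxcl14, Lingo2 and Megf6 were each detected in a minority of them. Cilp, a secreted matrix protein first described in cartilage, stood at 1190 and 616 CPM (UMIs of the gene, summed over the cells and scaled to an equal total) in gated cells of Notch2 cKO 1 and 2, against 32.9 and 39.6 CPM in Ccl21a-positive cells of control 1 and 2. Adamtsl2, a secreted glycoprotein of microfibrils, had 146 and 44.5 CPM in gated Notch2 cKO cells, against 0.168 and 1.26 CPM in control cells. A2m, a broad protease inhibitor, had 97.2 and 44.6 CPM, against 0.504 and 0.371 CPM. All of these lay far above both controls in both batches. The gate picks cells by these genes and the control cells were not so picked, so the gaps are tied to the gate. In gated cells of control 2, Cilp, Adamtsl2 and A2m stood at 282, 8.16 and 5.02 CPM.

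The chemokine gene Cxcl14 had 136 and 78.2 CPM in gated cells of Notch2 cKO 1 and 2, against 4.76 and 6.46 CPM in control cells, and Megf6, which encodes a secreted protein with EGF-like repeats, had 85.9 and 36.8 CPM, against 0.336 and 3.06 CPM. Lingo2, a membrane protein gene, depended on the batch, with 14.7 and 178 CPM in gated cells of Notch2 cKO 1 and 2, against 0.673 and 7.54 CPM in the controls. It was detected in 5.40% of gated cells in Notch2 cKO 1 and in 48.3% in Notch2 cKO 2. The gate was met mostly through Prkcb (protein kinase C beta), found in 83.5% and 95.3% of gated cells, and Ncam1 (a cell adhesion molecule), found in 69.1% and 74.1%. Adamtsl2, A2m, Cxcl14 and Megf6 were each found in 26.3% to 36.3% of gated Notch2 cKO cells, so the cells are more exactly Cilp, Prkcb and Ncam1 cells of which a part carries the other markers.

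**Figure D1:**
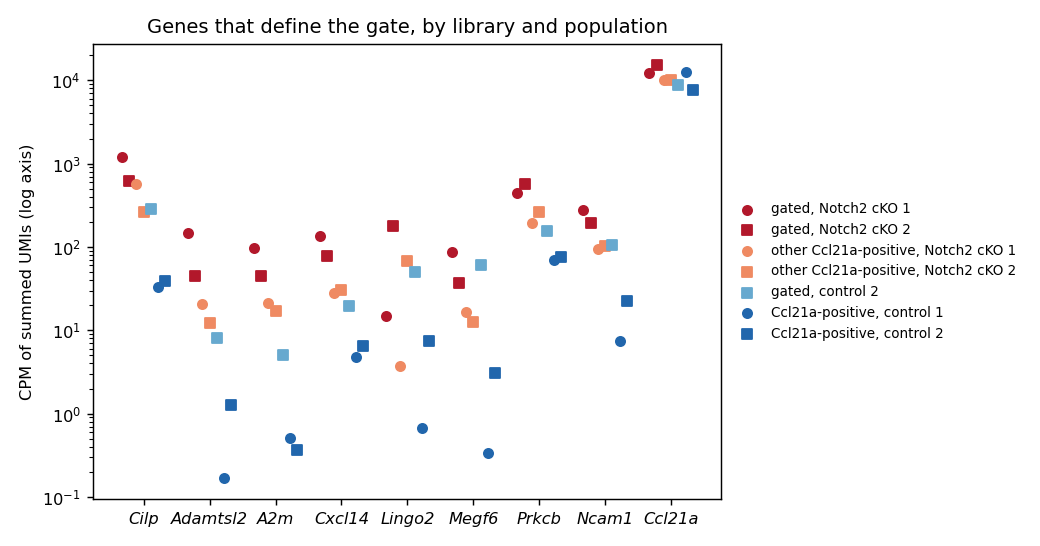
CPM from the summed UMIs (log axis) of the genes that define the gate, in gated and other Ccl21a-positive cells of the 2 Notch2 cKO libraries, gated cells of control 2, and all Ccl21a-positive cells of the 2 controls; circles are batch 1 and squares batch 2. Adamtsl2 lies at 146 and 44.5 CPM in gated Notch2 cKO cells and at 0.168 and 1.26 CPM in control cells, whereas Ccl21a lies within 7720 to 15400 CPM throughout.

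Gated cells made up 29.2% of the Ccl21a-positive cells in both Notch2 cKO libraries (1833 of 6288 cells, exact 95% binomial interval 28.03% to 30.29%, and 3316 of 11372 cells, 28.33% to 30%). They made up 0.0134% in control 1 (1 of 7456 cells) and 0.888% in control 2 (139 of 15659 cells, 0.747% to 1.05%). The intervals cover counting error only. With every cell thinned to 2000 UMIs the shares were 19.8% and 14.2% in Notch2 cKO 1 and 2, against 0% and 0.0899% for control 1 and 2, so the shares moved with depth and the controls stayed far below.

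**Figure D2:**
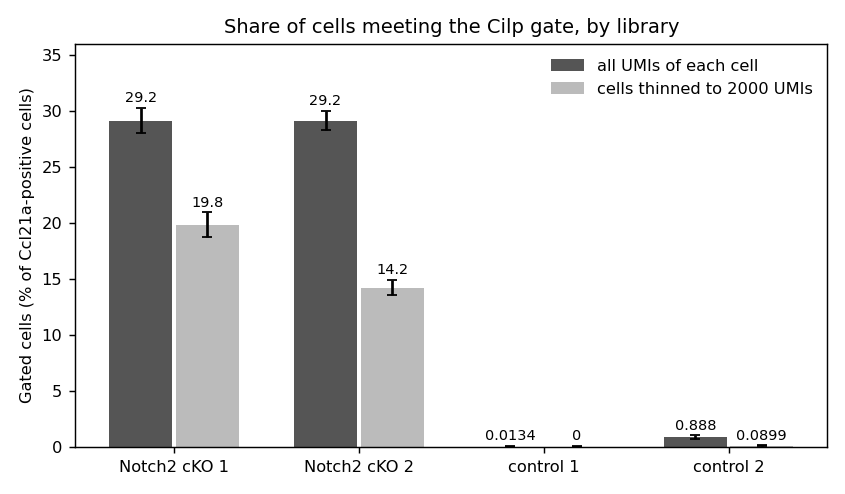
Gated cells as a percentage of Ccl21a-positive cells in each library, from all UMIs (dark) and after thinning each cell to 2000 UMIs (light); bars carry exact 95% binomial intervals. Both Notch2 cKO libraries reach 29.2% unthinned, and no control library exceeds 0.888%.

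Beyond the gate itself, Cilp was widespread in Notch2 cKO nodes: 71.8% and 60.3% of Ccl21a-positive cells in Notch2 cKO 1 and 2 held a Cilp UMI, against 6.24% and 10.9% for control 1 and 2. Among Schwann cells, which should lack it, 14.8% in Notch2 cKO 2 held a Cilp UMI, against 1.59% in control 2, with median depths of 3815.5 and 3852 UMIs. Among pericytes 43.8% and 22.4% in Notch2 cKO 1 and 2 held a Cilp UMI, against 6.16% and 4.46% in control 1 and 2. The gate held 12 and 73 pericytes of Notch2 cKO 1 and 2 and 5 Schwann cells of Notch2 cKO 2. The part of free RNA in the Cilp shares was not tested. Cells just outside the gate, with Cilp and exactly 1 of the 7 genes, numbered 1286 and 1221 in Notch2 cKO 1 and 2, and cells just inside, with exactly 2, numbered 905 and 1245. Cilp stood at 1056 and 526 CPM just inside and at 889 and 419 CPM just outside in Notch2 cKO 1 and 2. Cells that lacked Cilp but held 2 or more of the 7 genes numbered 135 and 392.

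The 139 gated cells of control 2 were unlike the gated Notch2 cKO cells outside the gate genes. Cxcl13, the B-cell chemokine made by marginal reticular and follicular dendritic cells, had 435 and 1490 CPM in gated cells of Notch2 cKO 1 and 2, against 10578 CPM in the gated control cells. Madcam1, an adhesion molecule of marginal reticular cells, had 1.88 and 5.93 CPM in gated cells of Notch2 cKO 1 and 2, against 125 CPM in gated control cells (exact 95% Poisson interval 108.2 to 143.6 CPM, counting error only). The gated control cells had 197 CPM of Hes1 and 109 CPM of Notch3, several times the level in gated Notch2 cKO cells, and Smoc2 (14.4 CPM) and Sfrp1 (32.7 CPM) were no higher than in all Ccl21a-positive cells of control 2. A2m, Adamtsl2 and Cxcl14 had 5.02, 8.16 and 19.5 CPM in the gated control cells, below the gated cells of both Notch2 cKO libraries. Megf6 had 60.3 CPM, higher than in gated cells of Notch2 cKO 2, the library of the same batch (36.8 CPM). Lingo2 had 50.2 CPM, lower than in gated cells of Notch2 cKO 2 (178 CPM). Of the gated control cells 92.1% held exactly 2 of the 7 genes, mostly Prkcb and Ncam1. Cells with high doublet scores made up 8.5% and 13.3% of gated cells in Notch2 cKO 1 and 2, against 20.1% of the gated control cells; the part of doublets in this difference was not tested. They come from 1 library, so no test between gated cells of the genotypes was made.

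Outside the 13 gate genes, gated Notch2 cKO cells were set against the Ccl21a-positive control cells of the same batch (edgeR quasi-likelihood test on UMIs summed per library, batch as a term, Benjamini-Hochberg adjusted p under 0.05). Of 15860 genes 1206 were called (7.6%), 473 higher (2.98%) and 733 lower (4.62%), and 1192 of them moved the same way in both batches. In the Ccl21a-rich comparison 895 of 15212 genes were called (5.88%), 458 higher (3.01%) and 437 lower (2.87%), and 768 calls were shared with the first. Without the batch term no gene passed (800 at an unadjusted p under 0.05), so every call in the gated comparison rests on the pairing by batch. With 1 library left out the batch term left no residual degrees of freedom and was dropped, and no gene passed, which does not show what a single library contributes. Because the gated cells were picked by their own counts and the control cells were not, genotype and choice of cells cannot be told apart in these values. The log2 difference between all Ccl21a-positive Notch2 cKO cells and all Ccl21a-positive control cells, which uses no gate, is therefore given beside the main genes. In that ungated comparison 216 of 18155 genes were called (1.19%), 135 higher (0.744%) and 81 lower (0.446%). It shares its control cells with the gated comparison, and its Notch2 cKO sums include the gated cells. These gave 7430661 of 21276380 UMIs in Notch2 cKO 1 and 36431714 of 99825958 UMIs in Notch2 cKO 2. The ungated values are therefore not independent of the gated ones.

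The higher genes were led by a mixed group of enzymes, matrix proteins and cytoskeletal adaptors. Lnx1, an E3 ubiquitin ligase, had 62.2 and 35.7 CPM in gated cells of Notch2 cKO 1 and 2, against 1.63 and 3.68 CPM in control 1 and 2 (log2 difference 4.06 ± 0.40, SE, edgeR adjusted p = 0.0002). Adamts15, a protease of matrix proteoglycans, had 77.1 and 37.7 CPM, against 2.47 and 3.63 CPM (log2 difference 4.03 ± 0.35, edgeR adjusted p = 0.00012). For both genes the groups were far apart in each batch, and over all Ccl21a-positive Notch2 cKO cells the log2 differences were 3.48 and 3.57.

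Inhbb, which encodes the beta B subunit of activin B, had 51.5 and 42.6 CPM in gated Notch2 cKO cells, against 3.76 and 5.24 CPM in control cells. Ecrg4, a secreted peptide precursor, had 104 and 162 CPM, against 7.96 and 19.9 CPM. Smoc2, a secreted calcium-binding matricellular protein, had 304 and 102 CPM, against 14.6 and 20.1 CPM (log2 difference 3.30 ± 0.42, edgeR adjusted p = 0.000784), and its difference was larger in the Ccl21a-rich comparison (4.36). These genes were several times higher in both batches, with the wider batch gap in Smoc2.

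Pdlim3, an actin-associated LIM protein, was the most abundant of the leading genes, with 325 and 390 CPM in gated cells of Notch2 cKO 1 and 2, against 63.2 and 50.4 CPM in the controls (log2 difference 2.62 ± 0.26, edgeR adjusted p = 0.000199). Htr1f, a serotonin receptor, had 54.5 and 128 CPM, against 7.34 and 14.7 CPM, and Fhl2, another LIM adaptor, had 76.4 and 83.1 CPM, against 7.4 and 21.6 CPM. Fgf23, a phosphate-regulating hormone known from bone, reached 20.2 and 49.5 CPM, against 1.85 and 11.9 CPM. Epb41l4b, the adenylyl cyclase Adcy7 and the serine protease Htra4 completed the leading 12, with log2 differences of 3.24, 3.17 and 2.73. All 12 also passed in the ungated comparison, with log2 differences of 1.99 (Pdlim3) to 3.57 (Adamts15).

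**Figure D3:**
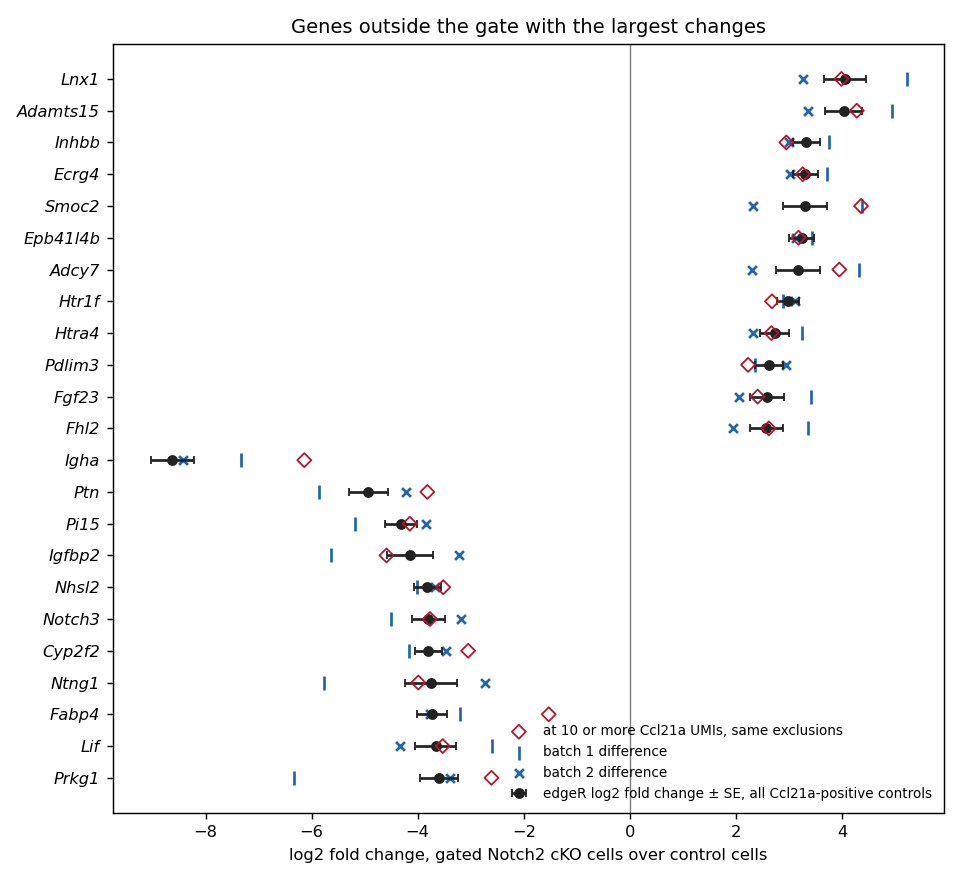
Log2 difference of gated Notch2 cKO cells over Ccl21a-positive control cells for 23 leading genes outside the gate, with the edgeR estimate and its SE (black), the difference within batch 1 and batch 2 (blue) and the estimate in the Ccl21a-rich comparison (red diamonds). The 12 higher genes lie between 2.57 and 4.06; among the lower ones Igha and Fabp4 shrink most, to -6.14 and -1.53, when control cells are held to the same Ccl21a level and exclusions.

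Canonical Notch targets fell together. Of 10 listed targets 8 had enough UMIs to test, 6 were lower, none was higher, and the median log2 difference was -2.40, against -0.0023 over all genes tested; the same 6 were lower in the Ccl21a-rich comparison. Notch3, itself a receptor gene that Notch signalling switches on in mural cells, had 6.86 and 20.3 CPM in gated cells of Notch2 cKO 1 and 2, against 157 and 184 CPM in control 1 and 2 (log2 difference -3.80 ± 0.31, edgeR adjusted p = 8.59e-05). Hes1, a transcriptional repressor, had 42.1 and 26.1 CPM, against 209 and 217 CPM (log2 difference -2.73 ± 0.25, edgeR adjusted p = 0.000146). In neither gene did the groups come near each other.

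At a fixed 2000 UMIs per cell, Notch3 was found in 1.25% and 3.39% of gated cells in Notch2 cKO 1 and 2, against 26.3% and 28.3% of Ccl21a-positive cells in control 1 and 2. Without thinning the shares were 2.29% and 12.4% in gated Notch2 cKO cells, against 27.8% and 54.8% in control cells. Heyl, a repressor of the Hey family, had 0.135 and 1.02 CPM in gated Notch2 cKO cells, against 12.1 and 12.5 CPM in control cells, and Hey2 had 3.36 and 1.76 CPM, against 16 and 6.38 CPM. Hey1 and Nrarp, a feedback inhibitor of the pathway, were lower too, while Lfng, a glycosyltransferase that modifies Notch receptors, and the ubiquitin ligase gene Dtx4 had log2 differences of 0.69 and -0.11 and did not pass. Over all Ccl21a-positive Notch2 cKO cells Notch3, Hes1 and Hey2 also passed, with smaller log2 differences of -2.11, -1.72 and -1.72.

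RBPJ binds the letters TGGGAA, and the promoters of 2 fallen targets are shown because one holds this run and the other does not. RefSeq promoter windows (GRCm38.p6, 250 bases before the gene's start, written on the gene's strand) were at hand for 6 of the 10 listed targets; TGGGAA on either strand was in 3 of them (Hes5, Lfng and Hey2) and in 21.6% of all 32851 windows. Capitals mark the run, read here on the other strand as TTCCCA and starting at position -207 from the start. A match is a run of letters, not a site shown to be bound.
Hey2, chr10:30842784-30843033, minus strand: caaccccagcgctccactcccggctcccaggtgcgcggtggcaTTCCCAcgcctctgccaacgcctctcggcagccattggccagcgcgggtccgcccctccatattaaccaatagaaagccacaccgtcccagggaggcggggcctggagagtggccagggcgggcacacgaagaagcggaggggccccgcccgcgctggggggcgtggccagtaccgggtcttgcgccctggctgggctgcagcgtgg
Notch3, chr17:32166891-32167140, minus strand: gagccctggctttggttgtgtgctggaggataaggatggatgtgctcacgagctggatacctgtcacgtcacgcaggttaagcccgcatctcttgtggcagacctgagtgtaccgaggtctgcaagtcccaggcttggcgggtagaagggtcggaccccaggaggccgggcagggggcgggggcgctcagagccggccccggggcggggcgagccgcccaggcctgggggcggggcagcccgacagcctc

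Notch2 itself had 16 and 40.3 CPM in gated cells and 18.0 and 39.4 CPM in the other Ccl21a-positive cells of Notch2 cKO 1 and 2, against 39.9 and 58.3 CPM in control 1 and 2 (gated against control, log2 difference -0.94 ± 0.23, edgeR adjusted p = 0.0327). Gated and ungated cells of a Notch2 cKO library thus held about the same level. The reads come from transcript 3' ends and the deleted exons are not given in the sources used here, so this level does not check the deletion. Among the other pathway genes, the receptor Notch1 (25.8 and 21.5 CPM, against 50.7 and 42.0 CPM) and the ligand Jag1 (48.9 and 36.1 CPM, against 84.6 and 65.0 CPM) were lower.

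The ligand gene Dll4 went the other way, with 79.3 and 46.5 CPM in gated cells of Notch2 cKO 1 and 2, against 11.8 and 14.7 CPM in the controls (log2 difference 2.14 ± 0.27, edgeR adjusted p = 0.000703; 1.82 in the ungated comparison). Of 13 pathway components tested 1 was higher and 4 were lower, with a median log2 difference of -0.0115. Maml3, a coactivator, was lower against all Ccl21a-positive controls (0.135 and 2.42 CPM, against 0.785 and 22.6 CPM). With the same exclusions in control cells it was still lower (log2 difference -3.13, edgeR adjusted p = 0.00337). In the Ccl21a-rich comparison its log2 difference was -0.79 and it did not pass (edgeR adjusted p = 0.528). Rbpj itself had a log2 difference of -0.05.

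Genes of perivascular-type reticular cells were low in both batches. Of 9 listed genes 8 were lower (7 in the Ccl21a-rich comparison) and none was higher, with a median log2 difference of -2.997. Ptn, a heparin-binding growth factor, had 3.63 and 15.3 CPM in gated cells of Notch2 cKO 1 and 2, against 214 and 286 CPM in control 1 and 2 (log2 difference -4.93 ± 0.37, edgeR adjusted p = 6.01e-05). Igfbp2, which binds insulin-like growth factors, had 1.88 and 7 CPM, against 96.2 and 65.8 CPM (log2 difference -4.15 ± 0.43, edgeR adjusted p = 0.000255). Both genes were nearly lost in each batch, and their ungated log2 differences were -2.72 and -3.15.

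The cytokine gene Il6 had 28.8 and 24.5 CPM in gated Notch2 cKO cells, against 120 and 345 CPM in control cells, the apolipoprotein gene Apoc1 had 20.5 and 13.8 CPM, against 123 and 136 CPM, and Stc2, a secreted glycoprotein hormone, had 25.3 and 16.7 CPM, against 98.6 and 43.2 CPM. Il13ra2, a decoy receptor for interleukin-13, and the lectin gene Colec11 were lower in both batches as well. Glycam1 was lower (log2 difference -2.25) but did not pass in the Ccl21a-rich comparison (-1.66, edgeR adjusted p = 0.0562), and Apoe did not pass in either (-1.47). Among contractile genes 7 of 13 were lower and none was higher (median log2 difference -1.59), and 4 passed in the Ccl21a-rich comparison (median -0.74). Myh11, smooth muscle myosin, had 5.25 and 34.3 CPM, against 86.6 and 177 CPM, whereas Acta2 and Tagln did not pass (-0.57 and -0.91). Pericyte markers summed to 779 and 827 CPM in gated Notch2 cKO cells, against 1041 and 1074 CPM in control cells, with 1 of 5 lower, or 0 in the Ccl21a-rich comparison; the part of pericyte RNA in these differences was not tested.

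Most of the factors by which T-zone reticular cells serve T cells did not pass the test, which on simulated counts mostly missed changes of 2-fold. Of 16 listed genes 1 was higher, 2 were lower and 13 did not pass (median log2 difference 0.27). Ccl19 had 1120 and 2010 CPM in gated cells of Notch2 cKO 1 and 2, against 4410 and 3190 CPM in control 1 and 2, lower in both batches by unequal amounts (log2 difference -1.36 ± 0.44, edgeR adjusted p = 0.103; -1.51 in the Ccl21a-rich comparison, edgeR adjusted p = 0.0642). Il7 had 255 and 197 CPM, against 188 and 136 CPM (edgeR adjusted p = 0.337), and Bst1, a surface enzyme of T-zone stroma, had 409 and 379 CPM, against 360 and 231 CPM (edgeR adjusted p = 0.495). Ccl21a, a gate gene, stood at 12300 and 15400 CPM in gated Notch2 cKO cells, against 12600 and 7720 CPM in control cells.

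Grem1, a BMP antagonist, was higher, with 989 and 804 CPM, against 438 and 338 CPM (log2 difference 1.18 ± 0.28, edgeR adjusted p = 0.0263), but against Ccl21a-rich controls at 565 and 523 CPM it did not pass (0.67, edgeR adjusted p = 0.27). Vtn, which encodes the adhesive glycoprotein vitronectin, had 174 and 186 CPM in gated cells of Notch2 cKO 1 and 2, against 691 and 464 CPM in the controls, and Cyp26b1, which breaks down retinoic acid, had 45.8 and 39.3 CPM, against 127 and 114 CPM. Both were lower in the Ccl21a-rich and the ungated comparison as well. The fibroblast receptor gene Pdgfra stood at 1110 and 536 CPM in gated Notch2 cKO cells, against 406 and 302 CPM in control cells, and Dcn, a fibroblast proteoglycan gene, at 4420 and 4760 CPM, against 5720 and 5640 CPM.

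Marginal reticular and follicular dendritic genes were lower or did not pass the test. Madcam1 had 1.88 and 5.93 CPM in gated Notch2 cKO cells, against 33.5 and 28.1 CPM in control cells (log2 difference -2.99 ± 0.38, edgeR adjusted p = 0.000735). Tnfsf11, the cytokine RANKL, had 4.58 and 18.9 CPM, against 17.8 and 88.3 CPM. Cxcl13 had 435 and 1490 CPM, against 305 and 1340 CPM (edgeR adjusted p = 0.74), and its batches lay further apart than its groups. Of 9 listed genes 5 were lower and none higher, and 3 were lower in the Ccl21a-rich comparison, which lost Cr2 and Coch.

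Matrix genes passed in both directions against all Ccl21a-positive controls, where 2.98% of all genes were higher and 4.62% lower. Of 20 collagens and fibre-forming genes 3 were higher, 3 were lower and the median log2 difference was -0.04; in the Ccl21a-rich comparison the 3 higher genes passed again and none was lower. The higher genes were all of elastic fibres: Eln (elastin) had 264 and 244 CPM in gated cells of Notch2 cKO 1 and 2, against 93.2 and 128 CPM in control 1 and 2; Fbln2 had 214 and 115 CPM, against 59.8 and 59.3 CPM; and Fbln5, which helps elastin assemble, had 80.1 and 63.2 CPM, against 35.2 and 29.6 CPM. Their log2 differences were 1.18, 1.35 and 1.10. In the ungated comparison none of the 20 passed, where 1.19% of all genes did. The ungated log2 differences of Fbln2 and Fbln5 were nearly as large (1.20 and 0.97), so their gain was not particular to gated cells. Other Ccl21a-positive cells of Notch2 cKO 1 and 2 held 195 and 90.8 CPM of Fbln2 and 72.2 and 52.8 CPM of Fbln5. Col1a1 and Col3a1, the main fibrillar collagens, had log2 differences of 0.24 and -0.34 and did not pass.

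Col15a1 was lower against all Ccl21a-positive controls (-1.58) and its sign turned in the Ccl21a-rich comparison (0.82, edgeR adjusted p = 0.326). Of 17 matricellular and basement membrane genes 2 were higher and 2 lower, against 3 and 1 in the Ccl21a-rich comparison, where the laminin gene Lama2 was higher as well (2.42; 0.64 otherwise) and Sparcl1 did not pass (-0.62; -2.38 otherwise). Thbs4, a thrombospondin of tendon, had 219 and 49.9 CPM, against 55.0 and 25.7 CPM, and Postn (periostin) had 22.6 and 36.7 CPM, against 144 and 276 CPM. The small proteoglycan gene Podn had 115 and 53.5 CPM, against 11 and 20.7 CPM (log2 difference 2.30), whereas its relatives Aspn and Ogn were lower (-2.81 and -1.33). Cartilage and tendon genes other than Cilp were mostly too rare: of 12 listed, 7 were tested and 1 passed, the lubricin gene Prg4, at 6.73 and 4.67 CPM, against 0.168 and 1.56 CPM.

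Among 16 matrix proteases and inhibitors 3 were higher and 7 lower, but 3 and 2 in the Ccl21a-rich comparison. Adamts5, an aggrecanase, had 643 and 493 CPM in gated Notch2 cKO cells, against 260 and 197 CPM in control cells (log2 difference 1.28; 0.92 in the Ccl21a-rich comparison, edgeR adjusted p = 0.0747). The gelatinase gene Mmp2 had 241 and 108 CPM, against 72.0 and 71.2 CPM, and was higher in both. Adamts4 had 8.21 and 11.9 CPM, against 22.5 and 44.4 CPM, and it and Mmp9 were the lower genes that passed in both.

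Genes of the TGF-beta, Wnt and BMP families changed in both directions. In the TGF-beta pathway 4 of 15 genes were higher and 1 lower (median log2 difference 0.51). The latent TGF-beta binding protein gene Ltbp2 had 292 and 230 CPM in gated cells of Notch2 cKO 1 and 2, against 129 and 96.7 CPM in control 1 and 2 (log2 difference 1.18 ± 0.22, edgeR adjusted p = 0.00819), and Ltbp3 (log2 difference 0.88) did not pass in the Ccl21a-rich comparison. Ccn2, a matricellular TGF-beta target, had 60 and 34.5 CPM, against 14.2 and 23.6 CPM, while the ligand gene Tgfb2 was low, at 1.35 and 5.24 CPM, against 17.6 and 19.3 CPM.

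In the Wnt family 4 of 12 tested genes were higher and 2 lower; the Ccl21a-rich comparison kept 4 higher and had none lower. Sfrp1, a secreted Wnt inhibitor, had 306 and 252 CPM in gated Notch2 cKO cells, against 49.1 and 44.4 CPM in control cells (log2 difference 2.53 ± 0.23, edgeR adjusted p = 0.000134; 2.25 ungated). Frzb, another inhibitor of the same kind, had 21.7 and 17.2 CPM, against 2.35 and 2.31 CPM, and Sfrp2 had 224 and 110 CPM, against 116 and 22.4 CPM. Rspo1, which strengthens Wnt signalling, was higher too, at 63.0 and 58.8 CPM, against 27.7 and 19.1 CPM, and the target gene Axin2 had a log2 difference of -0.49 and did not pass.

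The BMP ligand genes Bmp3, Bmp4 and Bmp2 were higher: Bmp3 had 117 and 97.8 CPM in gated cells of Notch2 cKO 1 and 2, against 35.8 and 23.1 CPM in the controls, Bmp4 had 195 and 102 CPM, against 68.2 and 36.1 CPM, and Bmp2 had 81.5 and 63.1 CPM, against 33.8 and 32.8 CPM (log2 differences 1.86, 1.47 and 1.07). Bmp5, a rarer ligand gene, was lower, at 0.269 and 0.933 CPM, against 1.29 and 6.97 CPM (-2.82; -1.92 in the Ccl21a-rich comparison, edgeR adjusted p = 0.0624). The BMP and activin antagonist gene Fst was lower (-2.39), and of the 14 genes tested 3 were higher and 4 lower, or 3 and 1 in the Ccl21a-rich comparison. Id1, a BMP response gene, was lower (-0.81) against all Ccl21a-positive controls and was not called in the Ccl21a-rich comparison. Of 8 genes of the insulin-like growth factor axis Igf2 was lower (-3.34), and in the Ccl21a-rich comparison Igfbp6 was higher (1.57; -0.80 otherwise).

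**Figure D4:**
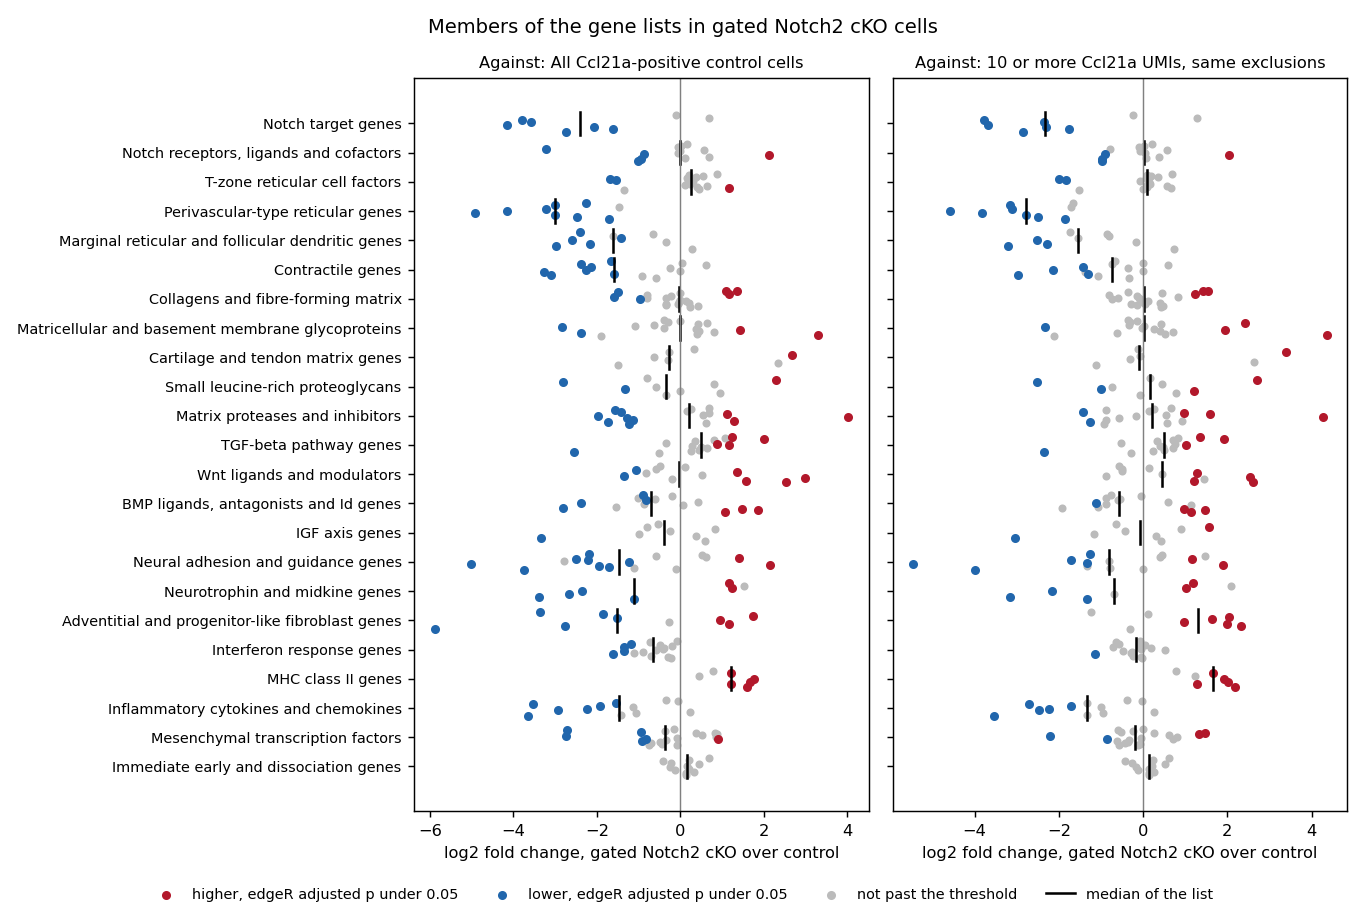
Log2 difference of gated Notch2 cKO cells over control cells for each tested member of the gene lists, against all Ccl21a-positive control cells (left) and in the Ccl21a-rich comparison (right). Red and blue points passed the edgeR test as higher and lower, grey ones did not, and black bars are list medians; Notch targets keep 6 lower genes in both panels, and the adventitial list turns from a median of -1.52 to 1.31.

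Antigen presentation genes of MHC class II rose: 5 of 7 were higher and none lower, in both comparisons. Cd74, the invariant chain that guides class II molecules, had 1270 and 961 CPM in gated cells of Notch2 cKO 1 and 2, against 374 and 268 CPM in control 1 and 2 (log2 difference 1.77 ± 0.29, edgeR adjusted p = 0.00359). H2-Eb1 had 324 and 168 CPM, against 90.9 and 56.4 CPM, and H2-Aa had 261 and 130 CPM, against 65.7 and 52.3 CPM. Their log2 differences in the ungated comparison were about as large (1.70, 1.61 and 1.70), and the other Ccl21a-positive cells of Notch2 cKO libraries held 1120 and 967 CPM of Cd74. Leukocyte markers summed to 17.4 and 19.1 CPM in gated Notch2 cKO cells, against 17.4 and 68.8 CPM in control cells. The gate excludes the leukocyte gene Ptprc and these control cells were not so filtered, so this sum is tied to the gate. In the other Ccl21a-positive cells of Notch2 cKO 1 and 2 the markers summed to 41.9 and 144.5 CPM. The part of leukocyte RNA in the class II values was not tested. The class II transactivator gene Ciita did not pass (0.46).

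Inflammatory cytokine and chemokine genes were lower in 6 of 12 cases, 5 in the Ccl21a-rich comparison, and none was higher. Lif had 4.04 and 2.58 CPM in gated Notch2 cKO cells, against 24.7 and 53.1 CPM in control cells, the eosinophil chemokine gene Ccl11 had 109 and 84.7 CPM, against 418 and 462 CPM, and the neutrophil chemokine gene Cxcl5 had 2.02 and 4.12 CPM, against 42.8 and 32.0 CPM. Ptgs2, the prostaglandin synthase, was lower (-1.54) but did not pass in the Ccl21a-rich comparison. Interferon response genes were lower in 4 of 16 cases and in 1, Isg15, in the Ccl21a-rich comparison; the gate removed cells with more than 2 UMIs of the interferon-induced Cxcl9, so this list is tied to it. None of 12 immediate early and dissociation genes passed in either direction (median log2 difference 0.15).

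Adventitial fibroblast genes depended on which control cells were used. Against all Ccl21a-positive controls 3 of 9 were higher and 5 lower (median log2 difference -1.52), and in the Ccl21a-rich comparison 5 of 8 were higher and none lower (median 1.31). Cd34, a progenitor marker, had 4.31 and 5.19 CPM in gated Notch2 cKO cells, against 20.5 and 43.1 CPM in all control cells and 4.38 and 5.04 CPM in Ccl21a-rich control cells. Ly6a (Sca-1) had 205 and 218 CPM, against 74.8 and 110 CPM in all control cells and 42.9 and 38.3 CPM in Ccl21a-rich ones, and it was higher in both. Ackr3, a scavenging receptor for CXCL12, and Cd55, a complement regulator, were also higher in both (log2 differences 1.75 and 0.96). The gate excludes the adventitial marker Pi16, so the first of these counts is tied to it.

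Adhesion and guidance genes better known from neurons changed in both directions, with 2 of 16 higher and 8 lower (median log2 difference -1.47), and with 2 of 14 higher and 5 lower in the Ccl21a-rich comparison (median -0.81). Ntng1, a netrin-G, had 1.21 and 14.2 CPM in gated cells of Notch2 cKO 1 and 2, against 67.9 and 94.0 CPM in the controls (log2 difference -3.75 ± 0.49, edgeR adjusted p = 0.000913; -2.70 ungated), whereas Robo1, a receptor for Slit ligands, had 106 and 506 CPM, against 42.8 and 170 CPM. Schwann cell markers summed to 1.62 and 9.77 CPM in gated Notch2 cKO cells, against 2.64 and 24.9 CPM in control cells, and the Ccl21a-rich control cells held 70.9 and 120 CPM of Ntng1.

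In the neurotrophin list Ntf3 and the receptor gene Ngfr were higher (log2 differences 1.23 and 1.18), and Ntrk2, with 6.19 and 14.5 CPM, against 85.2 and 116 CPM, Ntrk3 and Mdk were lower, of which Ntrk3 did not pass in the Ccl21a-rich comparison (-0.68). Of 20 mesenchymal transcription factors 1 was higher (Foxp2) and 5 lower, or 2 and 2 in the Ccl21a-rich comparison, where Foxp2 did not pass (0.72). Gli1, a hedgehog target, had 2.29 and 2.17 CPM, against 13.0 and 15.3 CPM (log2 difference -2.73), and was lower in both, while Sox9 was higher in the Ccl21a-rich comparison (1.47) and did not pass otherwise (0.84).

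The rest of the 12 lowest genes were of several kinds. Pi15, a secreted relative of protease inhibitors, had 1.35 and 7.41 CPM in gated Notch2 cKO cells, against 50.5 and 108 CPM in control cells, and Cyp2f2, a cytochrome P450, had 3.50 and 6.75 CPM, against 63.9 and 75.5 CPM. Both passed ungated (-2.28 and -1.39), as did Nhsl2 (-1.76). Prkg1, a cGMP-dependent kinase, had 0 and 21.1 CPM, against 3.70 and 222 CPM, and without control 2, in a fit with no batch term, its log2 difference was 1.34. Igha and Fabp4, at 0.269 and 0.0549 CPM, against 51.0 and 34.6 CPM, and at 0.673 and 6.62 CPM, against 6.56 and 90.9 CPM, are best known from plasma cells (Igha) and from adipocytes and endothelium (Fabp4). Adipocyte markers summed to 0.942 and 7.93 CPM in gated Notch2 cKO cells, against 9.75 and 93.7 CPM, and epithelial markers to 0.404 and 11.8 CPM, against 18.7 and 47.2 CPM, and the part of these cells in the lower genes was not tested. Endothelial markers summed to 5.79 and 9.11 CPM, against 7.96 and 15.2 CPM.

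Within a Notch2 cKO library the gated cells were set beside the other Ccl21a-positive cells. The gate splits these cells by their own counts, so the 3043 calls among 15796 genes (19.3%), 1253 higher (7.93%) and 1790 lower (11.3%), are a description and nothing is read from them. Smoc2 had 304 and 102 CPM in gated cells, against 135 and 54.6 CPM in other cells of Notch2 cKO 1 and 2, and Sfrp1 had 306 and 252 CPM, against 225 and 180 CPM. Notch3 had 6.86 and 20.3 CPM, against 30.3 and 104 CPM, and Hes1 had 42.1 and 26.1 CPM, against 93.5 and 78.2 CPM. Other Notch2 cKO cells therefore lay between gated cells and control cells for these genes. The largest gated excesses outside the gate were in Mfap4 (a microfibril protein, log2 difference 1.34), Myoc (1.26), Pdlim3 (1.18), Tnfrsf19 (1.17), P4ha3 (a collagen-modifying enzyme, 1.16) and Rarres1 (1.11). The largest deficits were all in immunoglobulin and plasma cell genes, which the exclusion of leukocytes touches.

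Genes outside the gate also graded with how many of the 7 gate genes a cell held. In cells with 2, 3, 4 and 5 to 7 of them, Hes1 stood at 48.5, 40.3, 37.1 and 27.3 CPM in Notch2 cKO 1 and at 35.0, 26.8, 18.8 and 19.5 CPM in Notch2 cKO 2. Smoc2 ran the other way, at 239, 310, 399 and 425 CPM in Notch2 cKO 1 and at 49.2, 83.4, 133 and 161 CPM in Notch2 cKO 2. Just outside the gate, with 1 of the 7 genes, Hes1 stood at 73.8 and 57.7 CPM and Smoc2 at 154 and 34.3 CPM in Notch2 cKO 1 and 2. Ccl19 varied less over these steps, at 1122, 1157, 1070 and 1130 CPM in Notch2 cKO 1 and at 1912, 2014, 2082 and 2076 CPM in Notch2 cKO 2. Median depth rose along the same steps, from 3474 to 5049 UMIs in Notch2 cKO 1 and from 8915 to 12876 UMIs in Notch2 cKO 2, and its part in the order was not tested.

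**Figure D5:**
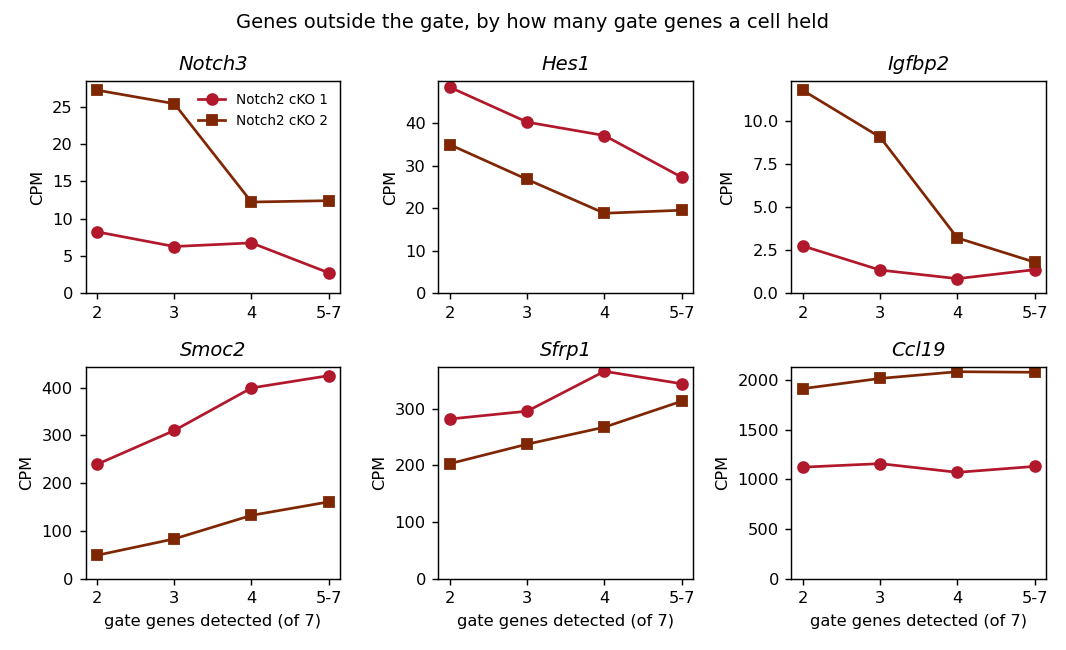
CPM of 6 genes outside the gate in gated cells of Notch2 cKO 1 (circles) and Notch2 cKO 2 (squares), by the number of the 7 gate genes that a cell held. Hes1 runs from 48.5 to 27.3 CPM and Smoc2 from 239 to 425 CPM in Notch2 cKO 1, and Ccl19 stays between 1070 and 1157 CPM there.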

How the data were processed

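The 4 libraries were made from 3' ends of single-cell RNA in droplets (version 3.1 chemistry of 10x Genomics, per the labels). The authors deposited unnormalized UMI counts for 32285 genes in each barcode. Per the file headers these came from Cell Ranger 5.0.1 (batch 1) and 7.1.0 (batch 2), while the submitters' processing notes name 5.0.1 and mm10; the use of intronic reads is not stated there. Batch and Cell Ranger version cannot be told apart.

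Counts of gated and comparison cells were summed per library and tested with edgeR 4.0.16 (R 4.3.3; TMM, filterByExpr, quasi-likelihood), with batch as a term, 1 residual degree of freedom and Benjamini-Hochberg adjustment over all tested genes outside the 13 gate genes. Same-numbered libraries share a batch in the labels, and their deviations from group means correlated at 0.793. Total UMIs per library were 25644596 and 108144616 (Notch2 cKO 1 and 2) and 21533049 and 119002408 (control 1 and 2). Scrublet in scanpy 1.11.5 made 1 automatic call in all, so its threshold did not work; cells with the highest scores stayed in and were removed in an alternative. The 13 gate genes, the 29 gene lists and the tests were chosen with earlier results of these data known. The Ccl21a-rich comparison was added after the values were seen. Named genes were the 12 (gated against control) or 6 (gated against other cells of the library) largest differences per direction with adjusted p under 0.05, the same sign in both batches and at least 20 CPM, with fixed genes and the list members with the lowest p; other list members were named after their values were seen. DESeq2 1.42.0 was an alternative. On simulated counts of the gated comparison the edgeR step recovered 100 of 100 genes changed by a log2 difference of 2. It recovered 20 of 100 genes changed by 1. Those counts had a single fixed dispersion, the same change in both batches, and changed genes only above 20 CPM, so recovery in the real data may differ. Alternatives were another normalization, no filter on low counts, other cell filters and gates, thinning, and leaving out each library. A few genes that these rules would name are not reported here.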

Additional observations from a re-analysis of the deposited data

How the results depend on the processing

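The gated comparison gave 1206 calls, and between 826 and 1355 under DESeq2 (929), library size alone, the stricter cell filter, doublet removal, the same exclusions in control cells, Ccl21a at 10 or more UMIs, 3 or more gate genes and thinning. It gave 2022 with no filter on low counts and 0 without the replicate block (800 genes at an unadjusted p under 0.05). Leaving out 1 library, and with it the batch term, gave 0 each time (518 to 912 unadjusted), where the lone sample was assumed to vary like the other group. The ungated comparison gave 216 calls, 462 with DESeq2, 462 with no filter, 92 with library size alone, 0 without the replicate block, and 0 to 98 with a library left out. Gated against other cells gave 3043 calls, 861 with DESeq2, 1845 at 10 or more Ccl21a UMIs, 1631 with the same exclusions as well, 1271 thinned and 0 without the replicate block.

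Shares moved with the gate. In Notch2 cKO 1, Notch2 cKO 2, control 1 and control 2 they were 32.8%, 31.1%, 0% and 0.985% with the stricter cell filter, 35.5%, 42.5%, 0.019% and 1.2% at 10 or more Ccl21a UMIs, 14.8%, 18.2%, 0% and 0.0702% at 3 or more of the 7 genes, 49.6%, 39.9%, 1.42% and 4.56% at 1 or more, and 19.8%, 14.2%, 0% and 0.0899% thinned to 2000 UMIs.

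With 1 library left out, which also took out the batch term, log2 differences whose sign turned ran from -15.30 to 1.34 for Prkg1, -0.46 to 3.52 for Ighg1, -0.87 to 1.48 for Cxcl13, -6.35 to 0.58 for Maml3, -4.14 to 1.09 for Hamp2, -4.95 to 0.09 for Lmod1, -3.40 to 0.01 for Adamtsl1, -2.92 to 0.49 for Adamts12, -4.66 to 0.16 for Ebf2, -0.99 to 0.10 for Hspa1b and -0.57 to 0.09 for Hspa1a. Control 2 was the library behind the upper bound for Prkg1, Cxcl13, Maml3, Hamp2, Lmod1, Adamtsl1, Adamts12 and Ebf2. With Ccl21a at 10 or more UMIs and the same exclusions the sign turned for Col15a1 (0.82) and, between gated and other cells, for Ighe (0.82). The cause was not tested. These counts take in gated against control for all named genes, and gated against other cells for the genes named there. A gene could thus count once in each comparison. Of 133 such results in that setting 112 kept their side of the threshold and direction, 19 lost the call and 2 turned. Without the replicate block 117 of 135 lost it, and with DESeq2 6 of 135 did.

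With 2 libraries per group, changes of 2-fold were mostly missed by the test on simulated counts, and levels under about 1 CPM rest on few UMIs.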
